A study of Homo sapiens with 2 samples.

Results

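The transcripts described here had exactly 2 exons and at least 20 windows, in a deposited table that scores the N6-methyladenosine (m6A) signal of short consecutive windows along human transcripts. For each gene name the longest listing that starts at exon 1, window 1 was kept, and a gene was a member when its mean input coverage was at least 1. By this rule 406 gene names were members, of 47352 in the table, with 21955 of the 1983959 windows on kept listings. Without the input minimum, 3726 names had a listing of this shape. The minimum fell within a continuous range of input levels. TMEM187 and DHFRL1 lay just below it, at mean inputs of 0.990 and 0.997, and DUSP18 and SPIN3 just above it, at 1.001 and 1.01. The members were selected on measured input coverage, so their input levels are given only as a description. Members had between 20 and 232 windows, with a median of 37 windows in the longer exon and 6 in the shorter, and 84.0% of their windows lay in the longer exon. The names stood for 395 loci, since 11 pairs of names shared most of their windows, among them TOR4A and C9orf167. Of the 406 names, 299 had a single listing in the table and 43 also had a listing of 3 or more exons, so that the number of exons is that of the listing kept.

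Both libraries came from GM12878, an established human lymphoblastoid line, made by transforming B cells with Epstein-Barr virus. The cells received no treatment that the labels name. Total RNA was broken into fragments, and either all fragments (input) or those bound by an antibody against m6A (IP) were sequenced as strand-specific libraries. There was 1 library of each kind, so no difference between them has a replicate check, and no test was possible. A source field of the labels names mouse embryonic stem cells, whereas the organism, cell type and cell line fields name human GM12878. In the input, 9 of 10 B cell markers had a mean coverage of at least 1, whereas all 8 pluripotency markers lay at or below 0.153. At least 1 was also reached by 2 of 7 T cell, 1 of 5 fibroblast, 1 of 5 myeloid and 0 of 4 erythroid markers.

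Coverage is given as the authors scaled it, per library, by a factor that is not given in the sources used here. All values were whole multiples of a fixed step, and a coverage of 1 corresponded to approximately 15.8 reads in a window of the input and 10.04 in a window of the IP. Kept listings held coverage equal to about 50.3 M input reads and 56.9 M IP reads, and the members held 1.89% and 5.004% of it. Neighbouring windows shared reads, and copies made by PCR are not independent molecules. The exact 95% intervals below, which count each read, window, gene or peak as independent, therefore cover counting error only. High-scoring windows of a gene often lie side by side, so the intervals for shares of windows are too narrow.

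m6A is placed on adenosines of messenger RNA while it is being transcribed, by a complex built around the methyltransferase METTL3 and its partner METTL14. It is found mostly in long exons, near stop codons and in 3' untranslated regions. It is sparse close to splice junctions, where protein complexes left by splicing shield the RNA, so the arrangement of exons bears on where the mark can be laid down. In many 2-exon genes of mammals a short first exon holds mainly the 5' untranslated region, and a long last exon holds the coding sequence and the 3' untranslated region.

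Enriched stretches were present in most 2-exon transcripts. The deposited window score is the log2 ratio of IP to input, each first divided by its median over the gene, with 1 added to every value. Windows that scored 2 or more, a 4-fold excess relative to their gene, are called enriched here, and 2 or more of them in a row form a region, whose highest-scoring window is its peak. A region was found in 261 of the 406 members, or 64.3% (59.4 to 69.0), while 50.5% of all genes with the same minimum of input and of windows had one. Of the members' windows 2178, or 9.92% (9.53 to 10.3), were enriched, against 5.83% in all genes with those minimums and 2.64% over all kept listings. In total the members held 390 regions of 2 to 25 windows, with a median of 4. A single region was present in 166 members, 2 regions in 70, and 3 or more in 25, or 6.16%, beside 6.63% of all genes tested. Region peaks had a median IP coverage of 80.5 at a median input of 3.67.

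The local signal of a gene was summarised by its gene-level score, the highest mean of 2 consecutive windows. Over the members this score ranged from 0.12 to 6.96, with a median of 2.61 and quartiles of 1.74 and 3.48, while the median over all genes tested was 2.10. The score was 4 or more in 68 members and under 1 in 39. A score of 2 or more can occur without a region, when only 1 of the 2 windows is itself at 2. When the members were divided by mean input into 4 classes of equal size, the share with a region was 60.8%, 69.3%, 66.3% and 60.8% from the lowest to the highest class, with no steady trend. Divided likewise by number of windows it was 45.1%, 53.5%, 70.3% and 88.2%.

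Because a longer transcript offers more places for a region, members were set beside other transcripts of like length. Among transcripts of 20 to 39 windows, 45.5% of 2-exon genes (37.2 to 54.0, 66 of 145) had a region, beside 24.8% of single-exon genes and 22.0% of genes of 3 or more exons. Among those of 40 to 79 windows the shares were 68.7% (61.7 to 75.1, 136 of 198), 54.2% and 46.2%. Among those of 80 or more windows they were 93.7% (84.5 to 98.2, 59 of 63), 78.7% and 70.5%. At this threshold the 2-exon genes thus had the highest share of the 3 sets in each length class. They lay above single-exon genes by 20.7, 14.4 and 14.9 percentage points, with lower limits of 9.62, 2.91 and 0.966 that cover counting error only. The first of these shrank to 0.627 points (-7.69 to 9.14) at a threshold of 3, and the last to 8.54 points (-4.05 to 22.7) with 0.1 added, and turned to -2.09 at a threshold of 1. Above genes of 3 or more exons they lay by 23.6, 22.5 and 23.1 points, with lower limits of 15.04, 15.4 and 13.9. Here the first shrank to 6.58 points (0.990 to 13.6) at a threshold of 3 and the last to 0.630 points (-8.53 to 5.32) at a threshold of 1. The median mean input differed between the sets, at 2.64 in 2-exon genes, 3.30 in single-exon genes and 3.65 in genes of 3 or more exons. At a mean input of 5 or more the shares were 60.2%, 35.8% and 40.9%, in the same order.

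**Figure D1:**
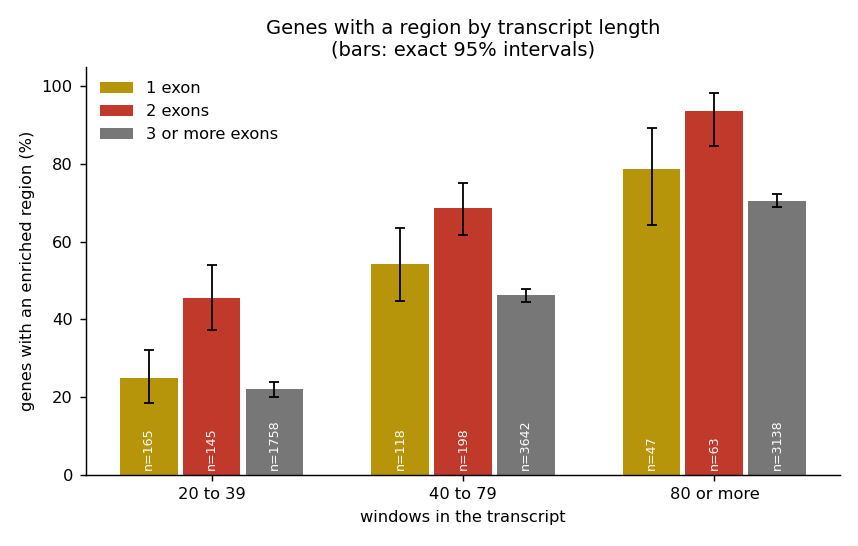
Share of genes with an enriched region (%) by number of windows in the transcript, for transcripts of 1 exon, 2 exons and 3 or more exons at a mean input of at least 1; n gives the genes and bars the exact 95% intervals. The bars of 2-exon genes stand at 45.5%, 68.7% and 93.7%, and single-exon genes and genes of 3 or more exons lie lower in each length class.

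The length of the longer exon was compared in the same way. Where the longer exon had 10 to 19 windows, a region lay in it in 28.3% of members (16.8 to 42.3), beside 28.0% for the longer terminal exon of genes of 3 or more exons. For exons of 20 to 39 windows these shares were 46.3% (38.5 to 54.3) and 43.8%, and the intervals overlapped. For exons of 40 to 79 windows they were 79.1% (71.6 to 85.3) and 58.0% (55.8 to 60.3), and for exons of 80 or more windows 90.2% (76.9 to 97.3) and 72.9% (69.5 to 76.0). The members' long exons thus lay above long terminal exons of other transcripts, and their exons under 40 windows were within counting error of them.

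ARF6, a small GTPase of endosomal recycling, had the highest gene-level score of the members, at 6.96. At its peak, 18 windows into an exon of 76 windows, coverage was 45.9 in the input and 6478 in the IP, a ratio of 141 (131 to 152). A single run of 19 enriched windows held the signal, and over the gene the medians were nearly equal, at 11.03 in the input and 10.1 in the IP. SLC5A3, a sodium-dependent transporter of myo-inositol, had a score of 6.82 and the longest transcript of all members. Its peak had an IP coverage of 184 at an input of only 0.745, so the ratio of 246 had a wide interval, 138 to 468. It held 4 regions, and the longest ran over 24 windows. RAP2A, a Ras-family GTPase, scored 6.53, with an IP of 626 and an input of 7.88 at a peak 3 windows from the junction.

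The other 9 of the 12 highest members scored between 5.34 and 5.97. PLEKHF2, an endosomal protein, had an IP of 323 beside an input of 6.85 at its peak. STX11, a syntaxin needed for the release of cytotoxic granules, had 152 beside 1.72. TP53RK, the kinase of the KEOPS complex that modifies transfer RNA, had 720 beside 9.84. In all of these the peak lay in the longer exon, and the gene medians of IP and input were within 2-fold of each other. SERTAD2, a coregulator of transcription, had an IP of 365 and an input of 5.93 at its peak, and its region of 25 windows was the longest of any member. MGAT3, which adds the bisecting sugar to N-glycans, had 331 beside 3.30. CDCA4, a nuclear regulator of cell division, had 851 beside 8.94. CHST2, a sulfotransferase of the Golgi, held 3 regions and reached an IP of 211 at an input of 3.59. SPN encodes CD43, the major sialoglycoprotein of leukocytes, and its peak was among the deepest, with an IP of 2147 and an input of 57.3, a ratio of 37.4 (35.0 to 40.1). CEBPG, a leucine zipper transcription factor, had 441 beside 12.5.

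**Figure D2:**
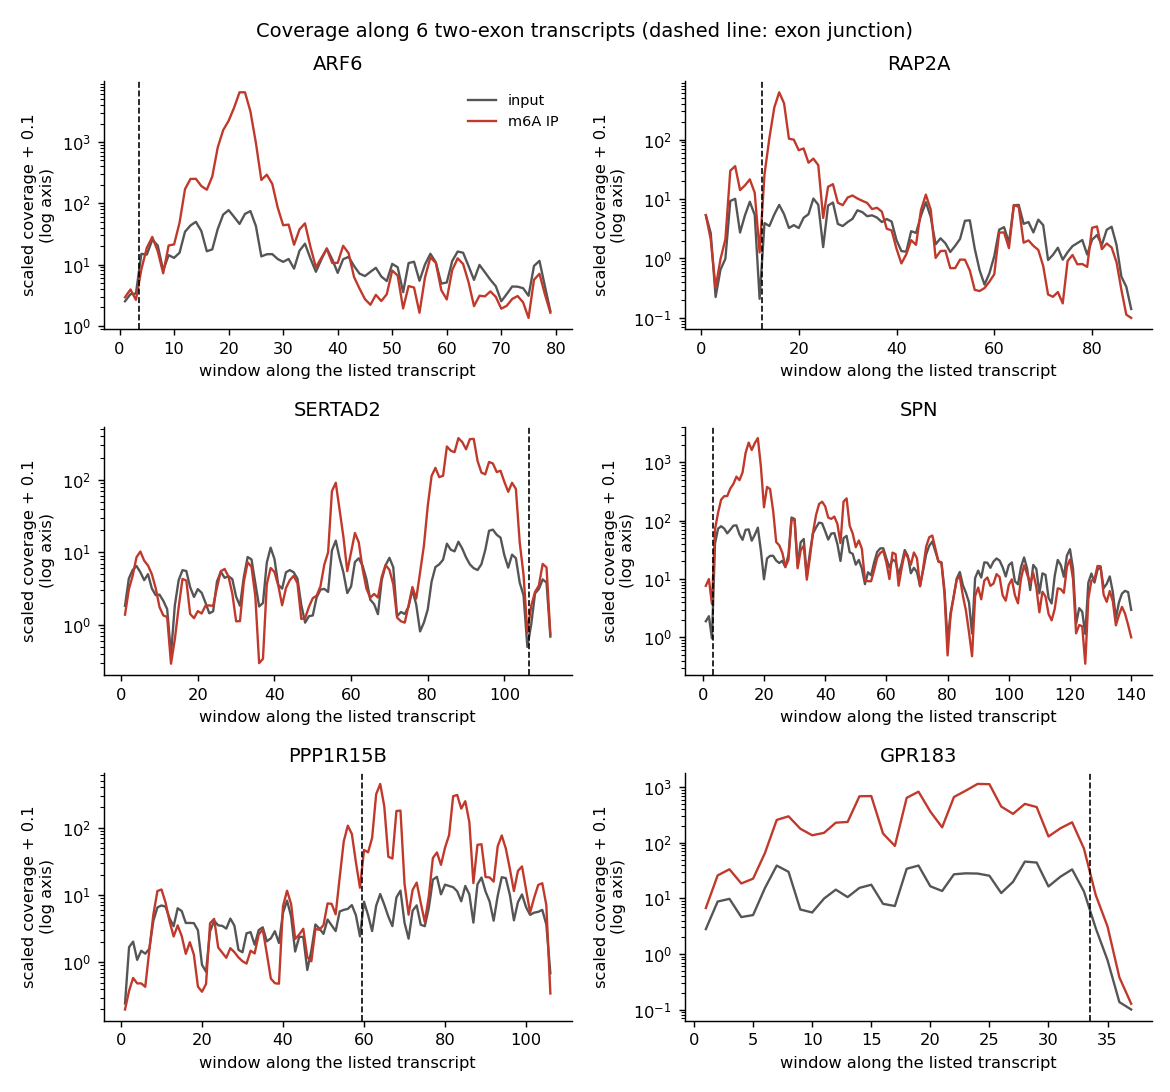
Scaled coverage plus 0.1 (log axis) of the input (grey) and the m6A IP (red) in each window along 6 listed transcripts, with the exon junction as a dashed line; exons are drawn in the order of the table, so SERTAD2, PPP1R15B and GPR183, on the minus strand, are drawn with the 3' end at the left. ARF6, RAP2A, SERTAD2 and SPN have, at their highest-scoring windows, IP coverages of 6478, 626, 365 and 2147 over inputs of 45.9, 7.88, 5.93 and 57.3, whereas in GPR183 the IP lies above the input along nearly the whole transcript.

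Long or repeated regions were found in genes of different functions. PDP2, a phosphatase that activates pyruvate dehydrogenase, carried a run of 24 enriched windows. Its peak had an IP of 91.2 beside an input of 1.12. MEX3C, a ubiquitin ligase that binds RNA, carried a run of 22 windows. The long non-coding RNA FGD5-AS1 carried a run of 20, with an IP of 430 and an input of 13.3 at a peak 5 windows from the junction. The most regions in a member were 5, in PEG10, SMCR8 and ZNF654. PEG10, an imprinted gene derived from a retrotransposon, held all 5 in its longer exon of 128 windows. HS6ST1, a heparan sulfate sulfotransferase, held 4 short regions in an exon of 68 windows, and its highest-scoring window had an IP of 148 beside an input of 1.88. Over all members, neighbouring peaks within a longer exon lay 3 to 66 windows apart, with a median of 13 over 111 pairs.

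Regions lay mainly in the longer exon. Of the 390 region peaks, 356, or 91.3% (88.0 to 93.9), were in the longer exon, which held 84.0% of the windows. Regions were confined to the longer exon in 234 members and to the shorter in 16, and 11 members had regions in both. Enriched windows made up 10.9% of the longer exons (10.5 to 11.4) and 4.70% of the shorter exons (4.02 to 5.45). Shorter exons of 1 to 5 windows had 5 enriched windows of 591, or 0.846% (0.275 to 1.96). Those of 6 to 10 windows had 2.50% (1.58 to 3.76), and those of 11 or more had 6.75% (5.70 to 7.93). Low coverage went with short exons: the median window input was 0.844, 0.904 and 1.81 in these 3 classes, and the part of depth in the low shares was not tested.

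Along the longer exon, enrichment was low in the window that touches the junction, rose over several windows and then declined. The share of enriched windows was 2.71% (1.36 to 4.80) in that window, 6.65% in the next and 9.11% in the one after. It then rose to 15.8% at 3 to 4 windows, 21.4% at 5 to 6 and 23.2% (20.9 to 25.7) at 7 to 9 windows from the junction. Farther out it was 19.2% at 10 to 14, 15.7% at 15 to 19, 10.9% at 20 to 29, 7.06% at 30 to 39 and 3.58% (3.09 to 4.11) at 40 or more. Coverage also dropped at the junction, with a median input of 1.54 in the window that touches it and 3.75 at 2 windows from it. With only windows of an input of 5 or more counted, the shape was the same, with 2.35% (0.286 to 8.24) at the junction and 31.7% (27.2 to 36.5) at 7 to 9 windows. A low share was not particular to the junction. The outermost window of the longer exon had 2.22% (1.02 to 4.17), at a median input of 0.537. Single-exon transcripts, which have no junction, had 2.27% (1.28 to 3.72) in their end windows, at a median input of 0.417.

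The profile was set beside that of the longer terminal exon of genes of 3 or more exons. There the share was 3.38% at the junction, reached 23.5% (22.8 to 24.1) at 5 to 6 windows and fell to 12.9% (12.6 to 13.3) at 10 to 14 and 8.25% (7.93 to 8.59) at 15 to 19. In the 2-exon transcripts the 19.2% (17.5 to 21.03) and 15.7% (14.03 to 17.4) at those distances lay above these values. The intervals did not overlap, but they count neighbouring windows of a gene as independent and are too narrow. Nearer the junction the order was the reverse: at 3 to 4 windows the share was 15.8% (13.3 to 18.5) in 2-exon transcripts and 19.95% (19.3 to 20.6) in the other set, and at 2 windows 9.11% (6.50 to 12.3) and 12.6% (11.9 to 13.3). In the window that touches the junction and the 2 after it the intervals of the sets overlapped. The highest shares thus lay farther from the junction in 2-exon transcripts. Peaks in the longer exon lay a median of 14 windows from the junction, with quartiles of 8 and 26.2. Of these peaks 2 lay in the window that touches the junction, and 2 regions ran across it. When that exon was divided into 3 equal stretches, 54.8% of the peaks (49.4 to 60.03) lay in the stretch nearest the junction and 10.96% (7.91 to 14.7) in the outermost. The median input of windows also fell with distance, to 1.69 at 40 or more windows, where the median IP was 1.75.

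**Figure D3:**
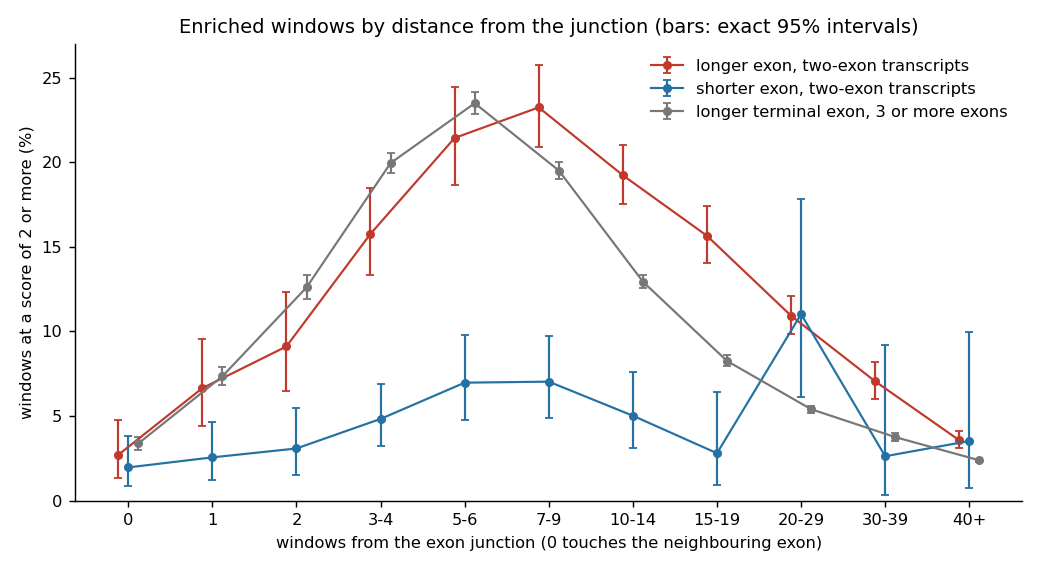
Share of windows at a score of 2 or more (%) by number of windows from the exon junction, for the longer and the shorter exon of 2-exon transcripts and the longer terminal exon of transcripts of 3 or more exons; bars are exact 95% intervals. The longer exon of 2-exon transcripts rises from 2.71% at the junction to 23.2% at 7 to 9 windows and declines more slowly with distance than the terminal exons of other transcripts.

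Which exon is the 3' one could be settled for 241 members. The table numbers exons in genome order: among genes of 3 or more exons the last-numbered exon was longer than exon 1 in 91.2% on the plus strand and in 7.48% on the minus strand. Strands were taken from RefSeq by gene symbol. The longer exon was the 3' exon in 220 of the 241 members and the 5' exon in 21. Of the 220, 163, or 74.1% (67.8 to 79.7), had a region, and 240 of their 248 region peaks lay in the 3' exon. In these members 12.7% of the windows of the 3' exon were enriched and 2.94% of those of the short 5' exon.

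The 21 members whose longer exon is the 5' exon separate length from position, on few transcripts. Their shorter 3' exons had 10.9% of windows enriched (7.45 to 15.3, 29 of 265) and their longer 5' exons 5.54% (3.77 to 7.81, 30 of 542). In 15 of the 21 the mean log2 ratio of IP to input was higher in the 3' exon. Of their 13 region peaks, 6 were in the longer 5' exon. TMEM115, a membrane protein of the Golgi, had a mean log2 ratio of 3.63 in its 3' exon of 16 windows and 1.64 in its 5' exon of 26 windows. FBXL14, a substrate-binding subunit of a ubiquitin ligase, went the other way, with 0.10 in the 3' exon and 1.92 in the 5' exon. Its peak was 1 window from the junction, with an IP of 486 beside an input of 10.5. LRFN4, a leucine-rich repeat protein of synapses, also had the higher mean log2 ratio in the 5' exon, 3.66 beside 1.15. MAPKAPK5-AS1 and C12orf47 are among the 21 and share their windows. Both count among the 15 with the higher ratio in the 3' exon. So do EIF2S3L, at 0 in the 3' exon beside -0.638 in the 5' exon, and HIST2H2BF, at 0.050 beside -0.168.

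Over all 241 oriented members, 12.6% of the windows of 3' exons (12.02 to 13.3) were enriched and 3.56% of those of 5' exons (2.84 to 4.41). Among exons of 11 to 20 windows the shares were 12.2% (9.80 to 15.0, 39 exons) at the 3' side and 2.42% (1.36 to 3.96, 45 exons) at the 5' side. Among exons of 21 to 40 windows they were 11.8% (10.5 to 13.2, 77 exons) and 3.76% (2.42 to 5.54, 24 exons). In these 2 classes the 3' side had the higher share, with intervals that did not overlap but that count windows of an exon as independent. Its exons were somewhat longer, with means of 16.3 and 30.7 windows beside 13.8 and 26.6 at the 5' side. Among exons of 41 or more windows the order was the reverse, with 12.9% (12.2 to 13.7, 119 exons) at the 3' side and 18.7% (13.6 to 24.8) in only 4 exons at the 5' side, and the intervals overlapped. Exons under 11 windows were too few at the 3' side to compare. Input did not run evenly between the sides: for exons of 11 to 20 windows the median window input was 2.90 at the 3' side and 1.92 at the 5' side. The mean log2 ratio was higher in the 3' exon of 205 members, or 85.1% (79.9 to 89.3), with medians of 1.197 and 0.185 for the 3' and 5' exons. The part of the lower input at the 5' side in these differences was not tested.

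**Figure D4:**
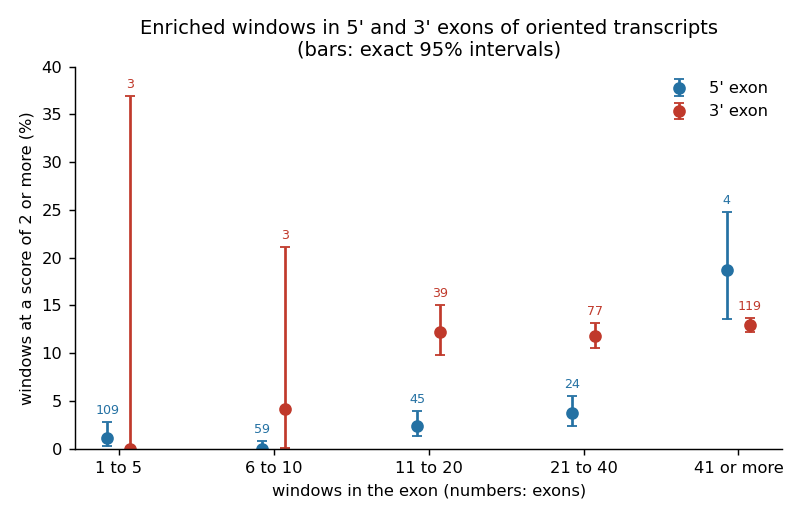
Share of windows at a score of 2 or more (%) in 5' exons (blue) and 3' exons (red) of the 241 oriented members, by number of windows in the exon; numbers over the points count exons and bars are exact 95% intervals. In exons of 11 to 20 windows the share is 12.2% at the 3' side and 2.42% at the 5' side, and in those of 41 or more windows 12.9% and 18.7%, the latter from 4 exons; the 3' classes under 11 windows hold 3 exons each and give wide intervals.

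The 11 members with regions in both exons were led by RAP2A. Its 5' exon of 12 windows had scores of 2.07, 2.21 and 2.52 in 3 consecutive windows, where IP coverage was 29.9, 35.7 and 14.1 beside an input of 9.20, 9.996 and 2.64. Scores then dropped to 1.43 at the last window of that exon, rose to 2.95 in the first window of the 3' exon and reached 6.61 in the fourth. MSL2, a ubiquitin ligase of a histone acetyltransferase complex, had its highest peak in the shorter exon of 18 windows, which is the 5' exon. IP coverage there was 271 and input 5.18, a ratio of 52.3 (41.8 to 65.7). PPP1R15B, a regulatory subunit of the phosphatase that restores translation after stress, had 2 regions in its 5' exon of 47 windows and 1 in its 3' exon of 59 windows. The highest score of the 5' exon was 4.61, with an IP of 314 beside an input of 6.84, and that of the 3' exon 3.21, with 107 beside 6.12. SMCR8, a partner of C9orf72 in autophagy, had 2 regions in the 5' exon of 58 windows and 3 in the 3' exon of 109 windows. The 5' exons with regions in RAP2A, MSL2, PPP1R15B and SMCR8 thus had 12 to 58 windows, whereas the median shorter exon had 6. AC010536.1 and FSBP also had regions in both exons, at gene-level scores of 4.26 and 3.94. ZNF654, a zinc finger gene, had 4 of its 5 regions in the shorter exon of 39 windows.

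The score divides out any enrichment that a whole gene shares, and in the 2-exon genes this part was large. The gene-wide ratio was taken from the deposited medians, as log2 of the IP median over the input median with 1 added to each. Its level depends on the unknown scaling of the libraries, so only its differences between genes were read. At least 2-fold was reached by 161 of the 406 members, or 39.7% (34.9 to 44.6), against 7.66% of all genes tested. Single-exon genes reached it in 29.1% (24.2 to 34.3) and genes of 3 or more exons in 5.31% (4.84 to 5.80). At least 4-fold was reached by 44 members of the 126 genes that did so in all, where 1.36% of genes tested passed. The median gene-wide log2 ratio was 0.75 in the members, 0.13 in single-exon genes and -0.15 in genes of 3 or more exons. On a score without the division by gene medians, 83.0% of the members had a region (78.99 to 86.5), against 51.2% of all genes tested, 52.4% of single-exon genes and 49.6% of genes of 3 or more exons.

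GPR183, the oxysterol receptor that guides B cells in lymphoid follicles and is known as a gene induced by Epstein-Barr virus, had the highest gene-wide ratio. It had medians of 190 in the IP and 14.3 in the input, a gene-wide log2 ratio of 3.64. At its highest-scoring window the IP was 1139 beside an input of 25.5, a ratio of 44.6 (40.4 to 49.4). It nevertheless had no region, and its gene-level score was 1.73. SERTAD1, a coregulator of transcription, had an IP median of 27.8 beside 1.86 and a gene-wide log2 ratio of 3.33, again with no region. EVI2B, a membrane protein of blood cells, had 113 beside 14.6 and a gene-wide log2 ratio of 2.87, and no region. MFSD5, a membrane transporter, and ADAT3, a subunit of a deaminase that acts on transfer RNA, had gene-wide log2 ratios of 3.08 and 2.89 and a single region of 2 windows each. In all, 60 members had no region and a gene-wide ratio of at least 2-fold. They included, chosen after their values were seen, the chemokine receptors CXCR3 and CCR8, the Mediator subunit MED7 and the copper chaperone SCO2.

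Members with and without a high gene-wide ratio had a region about as often. A region was present in 62.7% of the members with a gene-wide ratio of at least 2-fold (54.8 to 70.2) and in 65.3% of the others (59.0 to 71.3). The members with the highest scores had gene medians near each other, such as ARF6 at -0.11 and RAP2A at -0.47 on that gene-wide scale. Both measures were high in FBXO46, an F-box protein, with a gene-level score of 3.26 and a gene-wide log2 ratio of 2.73, and in LRFN4, with 3.96 and 2.57.

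**Figure D5:**
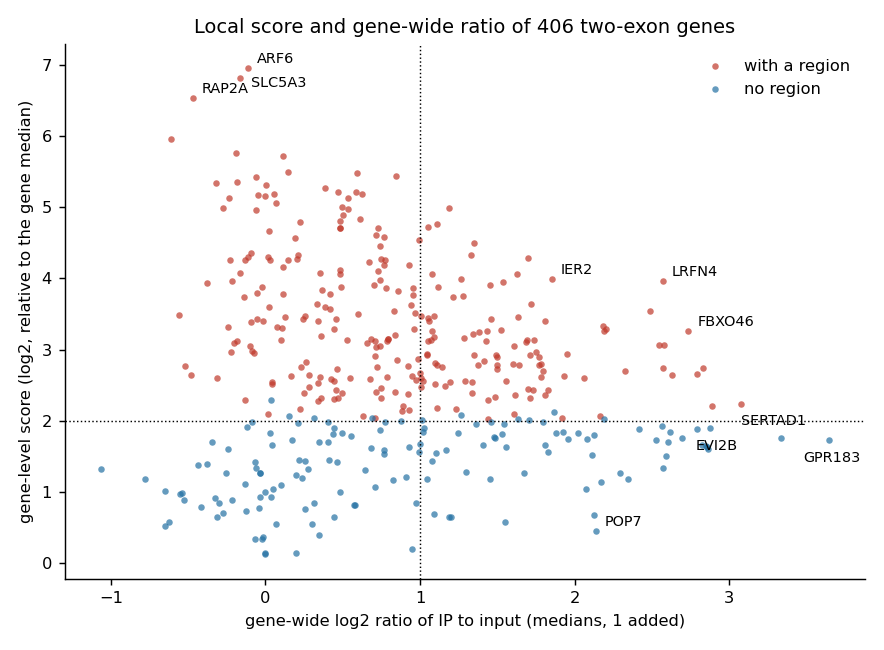
Gene-level score (log2, relative to the gene median) against the gene-wide log2 ratio for the 406 members, in red with a region and in blue without; dotted lines mark a score of 2 and a gene-wide ratio of 2-fold. ARF6, SLC5A3 and RAP2A stand highest at gene-wide ratios near 0, while GPR183, at 3.64, and SERTAD1, at 3.33, lie farthest right without a region.

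Centring on the gene median also gave the members windows of low score. A score of -2 or less was found in 393 windows of 79 members, or 1.79% (1.62 to 1.97), against 0.326% of windows in all genes tested. With 1 added to each value, a window that holds almost no reads scores close to minus the gene-wide log2 ratio, so low scores follow from the formula in poorly covered windows of genes with a high ratio. Of the 393 windows 165 had input and IP both under 1, and 123 had a higher coverage in the IP than in the input. In GPR183 the last window of the shorter exon had an input of 0 and an IP of 0.0269, and its score of -3.60 was near minus the gene-wide log2 ratio of 3.64. The first window of its longer exon, the 3' end, was covered, with an IP of 6.61 and an input of 2.70, and its score was -2.60. These low scores are therefore not counted as a signal of their own.

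Among well covered members some had little local signal. Of the 100 members with most input, the 5 lowest gene-level scores were those of LOC440563, FKBP1AP1, POP7, LSMD1 and HNRNPCL1, from 0.14 to 0.55. LOC440563, HNRNPCL1 and FKBP1AP1 are close copies of other genes, the last a pseudogene of FKBP1A, so reads of the parent genes could be counted there and their values are uncertain. POP7, a subunit of the RNases P and MRP, had a mean coverage of 49.0 in the IP and 11.9 in the input and a gene-wide log2 ratio of 2.14. Its low score of 0.45 therefore went with an even IP signal over its 20 windows rather than a low one. LSMD1, a subunit of an amino-terminal acetyltransferase, had a mean coverage of 14.9 in the IP and 11.6 in the input. ATF4, a transcription factor of the stress response, had a mean coverage of 68.9 in the IP and 46.7 in the input, and a score of 1.096.

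The gene lists used below were not complete, and their counts cover listed genes only. Many immediate early and short-lived regulators are genes switched on quickly by signals, and induction was not measured here. On their list 11 genes were members, and 9 of these had a region. Their median gene-level score was 3.26, beside 2.61 over all members and 2.10 over all genes tested, and a region was present in 64.3% and 50.5% of those. After SERTAD2 and PPP1R15B the highest was PMAIP1, which encodes the pro-apoptotic protein NOXA. Its peak had an IP of 310 and an input of 6.18, a ratio of 50.1 (41.2 to 62.3), at 2 windows from the junction. IER2 scored 3.99, and the zinc finger factors EGR1, EGR3 and EGR2 scored 3.76, 3.12 and 2.04, all with a region. The 2 without a region were CITED2 and SERTAD1, at 1.83 and 1.76. The same list held 28 other measured genes, of which 23 had a region, with a median of 3.01.

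Factors of mRNA decay and antiproliferative genes counted 6 members, all with a region, at a median score of 3.15, where 64.3% of all members had a region. Of the 2 other measured genes of that list 1 had a region, and their median score was 1.71. ZFP36L2, a zinc finger protein that binds AU-rich elements, scored 5.27, with an IP of 349 beside an input of 5.24 at a peak 33 windows from the junction. BTG1, which recruits the deadenylase, had deep coverage at its peak, 846 in the IP and 61.2 in the input, a ratio of 13.8 (12.95 to 14.8). ZFP36L1 was covered as deeply, with 918 beside 60.2 and a ratio of 15.3 (14.3 to 16.3). ZFP36 and TOB2 scored 3.15 and 2.75. BTG2 was lowest, at 2.32, and its region of 2 windows reached an IP of 79.6 beside an input of 11.01. These ratios are precise in counting terms and smaller than that of ARF6. Of the list of cytokine signalling inhibitors 3 were members: SPRY2 and SOCS3 had a region, at scores of 3.13 and 2.72, and SOCS1, at 1.84, had none.

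Receptors coupled to G proteins, many of which are encoded within a single long exon, formed the largest list with 14 members. A region was present in 9, and the median score was 2.60, close to the 64.3% and 2.61 of the members as a whole. Of 11 other measured receptors 6 had a region, at a median of 2.47. F2R, the thrombin receptor, was highest at 4.98, with an IP of 178 and an input of 2.88 at a peak 42 windows from the junction. GPR65, a receptor that senses protons, held 3 regions and had a peak IP of 101 beside an input of 4.30. LPAR5, a receptor of lysophosphatidic acid, scored 3.14. CNR2, P2RY8, CCR1, LTB4R, CCR10 and S1PR1 had scores from 2.55 to 3.06, each with a region. The 5 of the list without a region were S1PR2, CXCR3, GPR183, LTB4R2 and P2RY11, whose score of 1.34 was the lowest. The list was not complete: GPR55 and SSTR2, members outside it, had a region, and CCR8 had none. P2RY11, a receptor of ATP, had an IP median of 54.1 beside an input median of 8.29. In GPR183, CXCR3 and P2RY11 the gene-wide log2 ratio was 2.12 or more. The median over the 14 receptors was 1.49, beside 0.75 over all members and -0.12 over all genes tested. In a bulk library, a lower coverage cannot be divided into fewer cells that express a receptor and less RNA in each.

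The list of Toll-like receptors and innate signalling genes counted 4 members. TNFAIP8L2, a negative regulator of innate immunity, and TLR6 had regions, at scores of 3.25 and 3.21. TLR9, the receptor of unmethylated DNA in B cells, had a score of 2.08 without a region, and TICAM1, an adaptor of TLR3, had 1.14. TICAM1 was nevertheless covered more in the IP than in the input along its length, with medians of 45.4 and 9.31.

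The list of small GTPases and their regulators counted 6 members, at a median score of 4.15. A region was present in 5 of them, beside 64.3% of all members. Besides ARF6 and RAP2A these 5 were CDC42EP4, RAB39B and CDC42EP3, at 4.23, 4.08 and 3.46. RAB20, a member outside the list, also had a region, of 3 windows. RHOG had none: its coverage was high, with a median of 156 in the IP and 43.4 in the input, and its score was 1.56. The 35 other measured genes of that list had a region in 18 cases, at a median of 2.07.

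Of the ubiquitin system, all 4 listed Kelch, BTB and F-box adaptors had a region, beside 64.3% of all members and 50.5% of all genes tested. The 4 were FBXL14 at 4.59, FBXO46 at 3.26, FBXO34 at 2.92 and KLHL11 at 2.90. Their median of 3.09 lay below that of the 28 other measured genes of the list, 3.37, of which 22 had a region. Of 7 other listed ubiquitin genes 6 had one, led by the ligase SIAH2 at 4.27, with an IP of 203 and an input of 7.88. TRIM32 and RNF139, both ligases, scored 3.43 and 2.78. UBB scored 2.77 with its region in the shorter exon of 3 windows, and its value is uncertain because it is built of near-identical repeats.

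Of the list of zinc finger and BTB transcription factors 9 genes were members, and 6 of them had a region, at a median score of 2.41. Among these 9, ZBTB5 was highest at 3.55, followed by ZNF503 at 3.26 and ZNF574 at 2.56. ZNF654 and ZNF747, members with regions, are outside the list. ZNF281, ZBTB26 and ZNF581 had no region and gene-wide log2 ratios of 2.11 or more. Zinc finger genes have many relatives of like sequence, so single values are uncertain. The 38 other measured genes of this list had a median score of 3.59, and 34 had a region. Of the list of chromatin and transcription coregulators 3 genes were members, and each had a region, beside 64.3% of all members. IRF2BP2, a corepressor, scored 5.16, with an IP of 1619 and an input of 42.5 at its peak, a ratio of 38.1 (35.2 to 41.2). MEX3C and MEX3D, which were placed on the same list, scored 4.96 and 2.64. Of the list of membrane transporters and channels 3 genes were members. SLC5A3 and SLC30A1, a zinc exporter, had regions, and SLC35E4, at 1.87, had none. SLC10A3 and SLC39A3, members outside that list, also had regions. No gene of the list of RNA-binding proteins was a member, and MEX3C, which binds RNA, was not on that list.

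The share with a region also varied with the kind of name. A region was found in 215 of 309 members named by other symbols, or 69.6% (64.1 to 74.7), in 21 of 48 named by a genomic clone, or 43.8% (29.5 to 58.8), and in 13 of 29 assembled loci without a gene name, or 44.8% (26.4 to 64.3). Their median mean inputs were 3.08, 1.87 and 1.92. Of 20 members named as LINC, LOC or antisense genes 12 had a region, or 60% (36.1 to 80.9). By RefSeq class, 206 of 293 protein-coding members, or 70.3% (64.7 to 75.5), and 13 of 16 long non-coding members, or 81.2% (54.4 to 95.95), had a region. The long non-coding members had a median score of 2.85 and a median mean input of 1.58. LINC00342, of the list of long non-coding RNAs, had no region and a score of 1.98.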

How the data were processed

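Values came from a table deposited by the authors with 1 input and 1 m6A IP library of GM12878. Coverage is, per the file headers, a signal per window in each library, and the deposited medians are a coverage signal per gene. The deposited score is a log2 value that the authors computed, and recomputing it from coverage and medians gave 0 differences above 1e-06. Reads were aligned with TopHat 1.1.3 to hg19, per the submitters' processing notes, and the annotation is not given in the sources used here. Of 13026 isolated groups of covered input windows, 73.6% held 75 steps in total or 1 step more or fewer, while 1 read in a window makes 37 steps, so neighbouring windows shared reads.

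Enriched windows, regions, gene-level scores, gene-wide ratios and exact Clopper-Pearson 95% intervals were obtained in Python (3.11.15) from scripts built on pandas 2.3.3, numpy 2.4.6 and scipy 1.17.1, and the caller was tested on simulated data. RefSeq symbols matched 314 members, 31 of them through an older symbol. Windows carry no coordinates, so no sequence is shown. Named were the 12 members with the highest gene-level score and a region of at least 3 windows; the 5 with the longest region, with most regions, with the highest score among those with regions in both exons, with the highest gene-wide ratio, and with the lowest score among the 100 of most input; and the 3 highest and 1 lowest of each gene list. Immunoglobulin segments and Y-linked genes are not named. A gene that the rule names is not reported here. Other named members are list members or examples chosen after their values were seen. Members, lists and rules were chosen with earlier results of these data known. Alternatives changed the threshold, the number added, the centring, the run length and the minimums, and counting 1 name per locus was added after seeing the data. The division of 5' and 3' exons at 40 windows was also chosen after seeing the data.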

Additional observations from a re-analysis of the deposited data

How the results depend on the processing

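Of 106 recomputed values, 62 kept their direction and stayed within a set range, 43 moved beyond it and 1 reversed. That range was the counting error, except for the gene-wide ratio, where it was the quartiles over the members. The results rest on 1 library of each kind, and there was no replicate to leave out. No paired analysis was possible because each group has 1 library and the results come from no test. In short exons the low input limits what can be seen, and the gene-wide ratios depend on the unknown scaling of the libraries. The cause of the moves was not tested beyond what each alternative changes by construction.

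The main values were 64.3% of members with a region, 9.92% of windows enriched, 91.3% of peaks in the longer exon, 2.71% enriched at the junction, 23.2% at 7 to 9 windows and 4.70% in the shorter exon. At a score threshold of 1 these became 89.4%, 20.9%, 87.4%, 11.6%, 40.6% and 12.9%. There the 2-exon genes lay above genes of 3 or more exons by 14.2 percentage points at 40 to 79 windows and by 0.630 at 80 or more, and against single-exon genes of 80 or more windows the difference reversed to -2.09. At a threshold of 3 the shares were 36.2% of members, 4.16% of windows, 0.985% at the junction, 10.6% at 7 to 9 windows and 1.39% in the shorter exon. The difference from single-exon genes of 20 to 39 windows was then 0.627 points, and those from genes of 3 or more exons were 6.58, 14.7 and 28.6 points in order of length.

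With 0.1 in place of 1 added to each value, 11.7% of windows and 6.72% of those in the shorter exon were enriched. With 5 added, a region was found in 53.2% of members, and 6.99% of windows, 16.5% of those at 7 to 9 windows and 2.45% of those in the shorter exon were enriched. The difference from genes of 3 or more exons at 80 or more windows was then 29.1 points. Without centring on gene medians the shares were 83.0% of members, 22.2% of windows, 7.88% at the junction, 43.8% at 7 to 9 windows and 8.99% in the shorter exon. At 20 to 39 windows the 2-exon genes then lay 37.0 points above single-exon genes and 50.7 above genes of 3 or more exons, and at 40 to 79 windows 38.8 above the latter.

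Runs of at least 4 windows were found in 44.1% of members, and at 20 to 39 windows the differences were 5.87 points from single-exon genes and 13.3 from genes of 3 or more exons. With a minimum mean input of 5, 10.4% of windows were enriched, 94.7% of peaks lay in the longer exon, and the difference from genes of 3 or more exons at 80 or more windows was 35.6 points. With a minimum of 40 windows, 74.7% of members had a region and 10.5% of windows were enriched. Of windows whose input was 5 or more, 16.2% were enriched, with 31.7% at 7 to 9 windows from the junction and 8.09% in the shorter exon. Of the 68 named genes 52 had a gene-level score of 2 or more, which became 54 with 0.1 added, 49 with 5 added and 62 without centring. Scores moved by more than their counting error in 9 genes with 0.1 added (-0.26 to 1.38), in 31 with 5 added (-1.65 to 0.33) and in 46 without centring (-0.61 to 3.64).

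Counting 1 name per locus, an alternative chosen after seeing the data, gave 64.1% of 395 with a region.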
